A study of Mus musculus with 8 samples.

Results

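The genes described here encode 8 enzymes that make or use asparagine, glutamine and glutamate or move amino groups between amino acids: Asns, Glul, Glud1, Gpt2, Got1, Got2, Bcat1 and Bcat2. They were chosen by name, with earlier results of these data known. Each symbol was matched to its Ensembl mouse gene ID through GENCODE M21, and all 8 were found among the 21859 gene IDs of the count table. All 8 also passed the filter on low counts that left 10729 genes for testing. RNA was sequenced from 8 cultures of the mouse leukaemia line PER-M60, a single cell line rather than several independent leukaemias. Control medium was given to 4 of the cultures, and the other 4 received osteoclast-conditioned medium, which carries what bone-resorbing cells release. No genotype, drug or time point is given in the labels, and nothing further is given on how either medium was made. The comparison asks how these mRNAs differ between the media. Levels are in CPM, that is, counts relative to the TMM-normalised size of each library, and every ± is the SD over the 4 cultures of a medium (n = 4).

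As background, glutamate stands at the centre of this group. Glul (glutamine synthetase) joins ammonia to glutamate to form glutamine, Glud1 (mitochondrial glutamate dehydrogenase) converts glutamate to alpha-ketoglutarate and back, and Asns (asparagine synthetase) moves the amide nitrogen of glutamine onto aspartate. The transaminases pass the amino group of alanine (Gpt2), aspartate (Got1 in the cytosol, Got2 in mitochondria) or leucine, isoleucine and valine (Bcat1 in the cytosol, Bcat2 in mitochondria) to alpha-ketoglutarate, or work in reverse. Asns is a well-known target of the transcription factor ATF4 in cells short of amino acids, and leukaemia cells with little asparagine synthetase are the classic target of the drug asparaginase.

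The upstream sequences of 3 of the genes are shown because the ATF4 site of Asns lies there. They are the 150 bases before the RefSeq start of Asns (chr6:7693210-7693359, minus strand), Gpt2 (chr8:85492426-85492575, plus strand) and Got1 (chr19:43524606-43524755, minus strand) on GRCm38.p6, written 5′ to 3′ on the gene's own strand. GENCODE places the start of Asns further upstream, at 7693254. By that annotation the last bases of the Asns stretch, TGATGAAA among them, lie inside the gene. Capitals mark a match to TGATGNAA, the core of the C/EBP-ATF response element, or to its reverse complement TTNCATCA.
Asns: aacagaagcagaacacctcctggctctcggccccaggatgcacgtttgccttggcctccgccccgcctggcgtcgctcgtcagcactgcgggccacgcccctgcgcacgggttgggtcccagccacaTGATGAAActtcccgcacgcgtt
Gpt2: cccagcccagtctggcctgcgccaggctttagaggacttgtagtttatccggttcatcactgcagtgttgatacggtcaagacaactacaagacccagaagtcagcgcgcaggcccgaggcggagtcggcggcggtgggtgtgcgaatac
Got1: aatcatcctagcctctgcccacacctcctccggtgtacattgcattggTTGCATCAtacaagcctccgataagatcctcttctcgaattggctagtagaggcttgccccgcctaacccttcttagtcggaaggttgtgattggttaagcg
In the full promoter entries (250 bases before the start to 50 after it, found for all 8 genes), Asns held TGATGAAA with its first base 23 bases before the start. Got1 held TTGCATCA, the reverse complement form, with its first base 102 bases before the start. The other 6 genes had no match in these entries, including both listed starts of Bcat1 and of Bcat2. Among the 32851 mouse promoter entries of 300 bases, 3.97% held this motif on either strand. The E-box CACGTG, which reads the same on both strands, was in 7.15% of those entries and in 0 of the entries of the 8 genes. A match is a stretch of letters, and its use by a factor was not measured.

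Asns, Gpt2 and Bcat1 were higher in osteoclast-conditioned medium, and Glul and Bcat2 were lower. For Glud1, Got1 and Got2 the adjusted p was 0.05 or more. Gpt2 changed most, by 1.75-fold, followed by Asns at 1.40-fold, and Bcat1 rose by 19.6%, while Glul was at 0.880-fold and Bcat2 at 0.906-fold of control. By the quasi-likelihood test of edgeR, 5 of the 8 genes passed an adjusted p of 0.05 (Benjamini-Hochberg), 3 higher and 2 lower, against 30.5% of all tested genes (15.7% higher and 14.8% lower). A call together with a change of at least 1.2-fold was reached by Asns and Gpt2, 2 of the 8, against 8.53% of all tested genes. All cultures of one medium lay on one side of the other for 4 of the 8 genes, with 3 higher and 1 lower, against 28.2% of all tested genes (15.2% higher and 12.9% lower). The median log2 fold change of the 8 genes was -0.01 and lay between those of Glud1 and Got1, neither of which was called. For all tested genes it was also -0.01, a value that TMM scaling holds near 0. The median absolute log2 fold change was 0.16 for the 8 genes and 0.09 for all tested genes. Because the 8 genes were chosen with earlier results of these data known, these comparisons with all tested genes only describe them and test nothing.

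**Figure D1:**
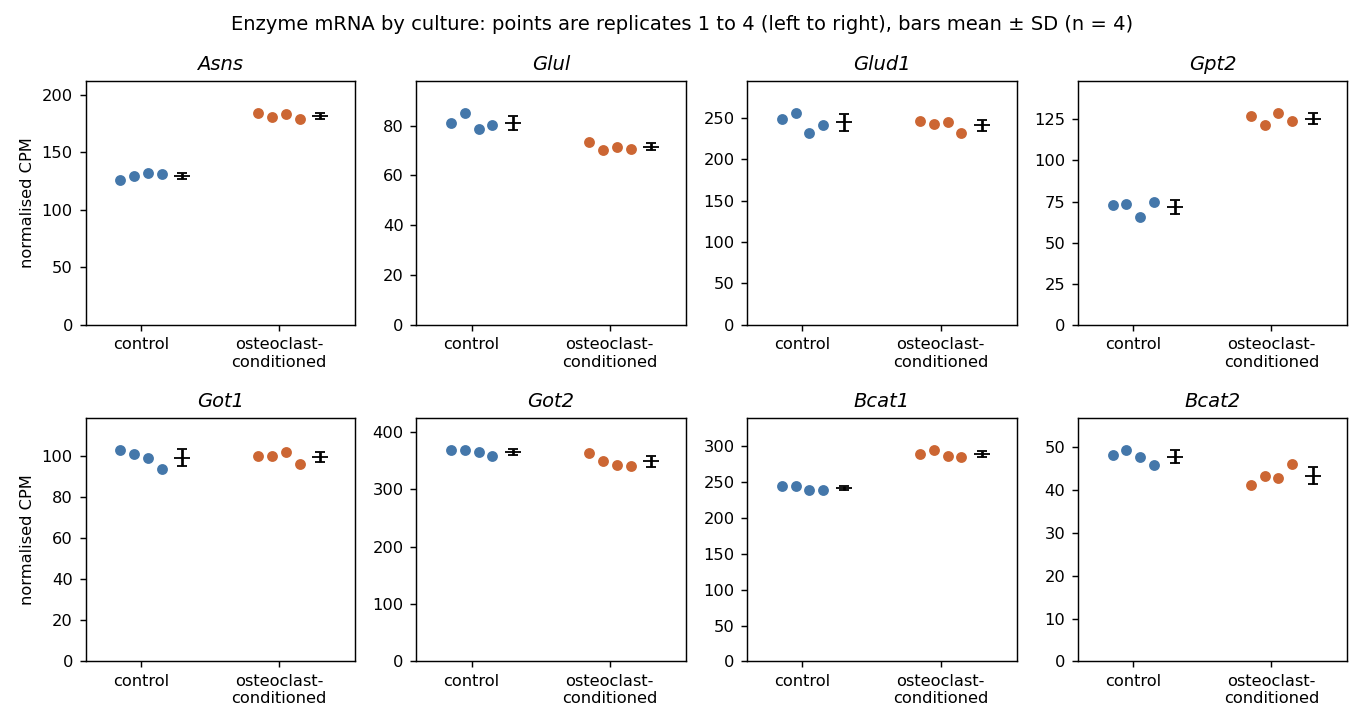
Normalised CPM (y axis from 0) of each of the 8 enzyme mRNAs in the 4 control cultures (blue) and the 4 osteoclast-conditioned cultures (orange), with points for replicates 1 to 4 and bars for the mean ± SD. Asns, Gpt2 and Bcat1 lie higher in every osteoclast-conditioned culture than in any control culture, Glul lies lower, and the groups overlap for Glud1, Got1, Got2 and Bcat2.

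Total counts per culture ran from 15391754 to 21637966, and a floor of 3 counts equals 0.138 CPM in the deepest and 0.194 CPM in the shallowest library. The enzymes lay far above it, with 722 to 8013 counts per gene and culture. B-lineage markers such as Pax5, Cd79a and Vpreb1 were abundant: the 13 listed genes summed to 4507 to 4563 CPM of the library total in control medium and to 4746 to 4783 with conditioned medium. Of the 11 that were tested, 6 were called higher and 1 lower, and Rag1 and Rag2 had 0 counts. The 11 osteoclast markers summed to 130 to 136 CPM in control cultures and 138 to 144 in conditioned ones, so the ranges did not overlap, but 8 of them had a mean under 10 counts. Those sums rested on Nfatc1, Acp5 and Itgb3, the 3 that were tested, of which Nfatc1 was called higher (log2 fold change 0.15) and Itgb3 lower (-0.25), while Dcstamp and Ocstamp had 0 counts and Ctsk had at most 5 counts in any culture. Of the 9 macrophage markers, 3 were tested and 1 was called higher, Lyz2 (log2 fold change 0.40), while Itgam, C1qa and C1qb had 0 counts, and the sums were 20.8 to 22.3 and 21.2 to 25.0 CPM in control and conditioned cultures. Sums were 10.9 to 12.9 and 9.13 to 11.5 for 8 stromal and osteoblast markers, nearly all of it Runx2, with Col1a2, Col3a1 and Cxcl12 at 0. Of these 8, 7 had a mean under 10 counts. For 6 T-lineage markers the sums were 134 to 135 and 132 to 136, nearly all of it Lck, with Cd3g and Cd8a at 0. The called markers among these were named after their values were seen, and the part of the B-lineage, osteoclast and macrophage marker differences in the enzyme results was not tested. Whether the marker zeros reflect expression was not tested. In such bulk samples fewer cells of a type and less RNA per cell cannot be told apart.

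Asns (ENSMUSG00000029752; chromosome 6, 7675169 to 7693254 in GRCm38, minus strand) had 126, 129, 132 and 131 normalised CPM in control replicates 1 to 4. In osteoclast-conditioned replicates 1 to 4 it had 184, 180, 183 and 179. Every osteoclast-conditioned culture was above every control culture, and the gap between the groups was much wider than the spread within them. Asns rose from 130 ± 2.78 to 182 ± 2.56 CPM, by 0.49 on the log2 scale with an SE of 0.03 (edgeR adjusted p = 7.70e-14). By absolute fold change Asns ranked 357 of the 10729 tested genes. No annotated gene overlaps its exons, and none of its 75-base stretches occurs in a transcript of another gene, which leaves no annotated copy to share reads of that length.

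Glul (ENSMUSG00000026473; chromosome 1, 153899944 to 153909723, plus strand), the enzyme that makes the glutamine that Asns consumes, moved the other way. It had 81.1, 85.2, 78.7 and 80.1 normalised CPM in control replicates 1 to 4 and 73.7, 70.4, 71.6 and 70.6 in osteoclast-conditioned replicates 1 to 4. The lowest control culture was above the highest osteoclast-conditioned culture. The means were 81.3 ± 2.81 and 71.6 ± 1.49, and the log2 fold change was -0.19 (SE 0.04, edgeR adjusted p = 0.000190). Of its exon bases, 3.49% overlap other annotated genes, including Teddm2 on the opposite strand, and 6.63% of its 75-base stretches occur in other transcripts, pseudogenes among them. In the test against a change of 1.2-fold its adjusted p was 1.

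Glud1 (ENSMUSG00000021794; chromosome 14, 34310727 to 34345265, plus strand) had 249.1, 256, 231 and 242 normalised CPM in control replicates 1 to 4 and 246, 242, 245 and 231 in osteoclast-conditioned replicates 1 to 4. The groups overlapped almost completely, and control replicate 3 and osteoclast-conditioned replicate 4 were the lowest of their groups. The log2 fold change was -0.022, with a 95% interval from -0.085 to 0.041 (edgeR adjusted p = 0.630). Without control replicate 2 the sign of this small difference turned (0.0015).

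Gpt2 (ENSMUSG00000031700; chromosome 8, 85492576 to 85527560, plus strand) encodes the mitochondrial alanine aminotransferase. Its normalised CPM were 72.8, 73.6, 65.5 and 74.7 in control replicates 1 to 4 and 127, 121, 129 and 124 in osteoclast-conditioned replicates 1 to 4. The lowest osteoclast-conditioned value was far above the highest control value. The means were 71.7 ± 4.17 and 125 ± 3.33, and the log2 fold change was 0.81 (SE 0.04, edgeR adjusted p = 2.02e-16), which placed Gpt2 at rank 74 of the 10729 tested genes by absolute change and at rank 50 among rises. Like Asns, it overlaps no annotated gene and shares no 75-base stretch with another transcript. Its cytosolic counterpart Gpt had a low level, with 35 to 65 counts per culture and 3.12 ± 0.305 normalised CPM in control and 2.51 ± 0.539 in conditioned cultures (log2 fold change -0.33, SE 0.16, edgeR adjusted p = 0.121).

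Neither aspartate aminotransferase passed the test. Got1 (ENSMUSG00000025190; chromosome 19, 43499752 to 43524605, minus strand) had 103, 101, 99.4 and 93.7 normalised CPM in control replicates 1 to 4 and 100.1, 100.4, 102 and 96.1 in osteoclast-conditioned replicates 1 to 4. The osteoclast-conditioned cultures all lay within the control range. The log2 fold change was 0.0038 with a 95% interval from -0.067 to 0.075 (edgeR adjusted p = 0.947), and scaling by total counts (-0.018) or by the upper quartile (-0.0052), which shifts all genes alike, put it on the other side of 0. The sign also turned when control replicate 4 (-0.020) or osteoclast-conditioned replicate 3 (-0.0083) was left out.

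Got2 (ENSMUSG00000031672; chromosome 8, 95864134 to 95888547, minus strand) had 370, 370, 366 and 359 normalised CPM in control replicates 1 to 4 and 363, 349, 343 and 340 in osteoclast-conditioned replicates 1 to 4. In osteoclast-conditioned medium 3 of the 4 cultures lay under every control culture, and replicate 1 lay inside the control range. The log2 fold change was -0.068 (SE 0.03, 95% interval -0.12 to -0.014), and the edgeR adjusted p of 0.0520 was just over the threshold. With edgeR the adjusted p was 0.00730 with scaling by total counts and 0.0219 with upper-quartile scaling, and without osteoclast-conditioned replicate 1 it was 0.0294. Of the exon bases of Got2, 434 of 4824 overlap a gene on the opposite strand, and 19.3% of its 75-base stretches occur in other transcripts, among them that of the pseudogene Got2-ps1, and how the counting treated reads with more than 1 match is not given in the sources used here.

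The branched-chain aminotransferases moved in opposite directions. Bcat1 (ENSMUSG00000030268; chromosome 6, 144993835 to 145076184, minus strand) had 244, 245, 239 and 238 normalised CPM in control replicates 1 to 4 and 289, 295, 286 and 285 in osteoclast-conditioned replicates 1 to 4. The cultures of each medium were within a few percent of each other, and the groups did not overlap. The log2 fold change was 0.26 (SE 0.03, edgeR adjusted p = 7.01e-09), with means of 241 ± 3.27 and 289 ± 4.51. In the test against a change of 1.2-fold the adjusted p was 1, since the estimate lies at that size.

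Bcat2 (ENSMUSG00000030826; chromosome 7, 45570153 to 45589711, plus strand) had 48.3, 49.5, 47.6 and 45.8 normalised CPM in control replicates 1 to 4 and 41.3, 43.2, 42.9 and 46.2 in osteoclast-conditioned replicates 1 to 4. Osteoclast-conditioned replicate 4 lay within the control range, and the other 3 osteoclast-conditioned cultures lay under it. The log2 fold change was -0.14 (SE 0.04, edgeR adjusted p = 0.0145). Without osteoclast-conditioned replicate 1 the change was -0.12 and the adjusted p rose to 0.0779, and in the test against 1.2-fold it was 1. Of its exon bases, 15.9% overlap 0610005C13Rik, a non-coding gene on the opposite strand, and whether the counting used strand is not given in the sources used here.

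**Figure D2:**
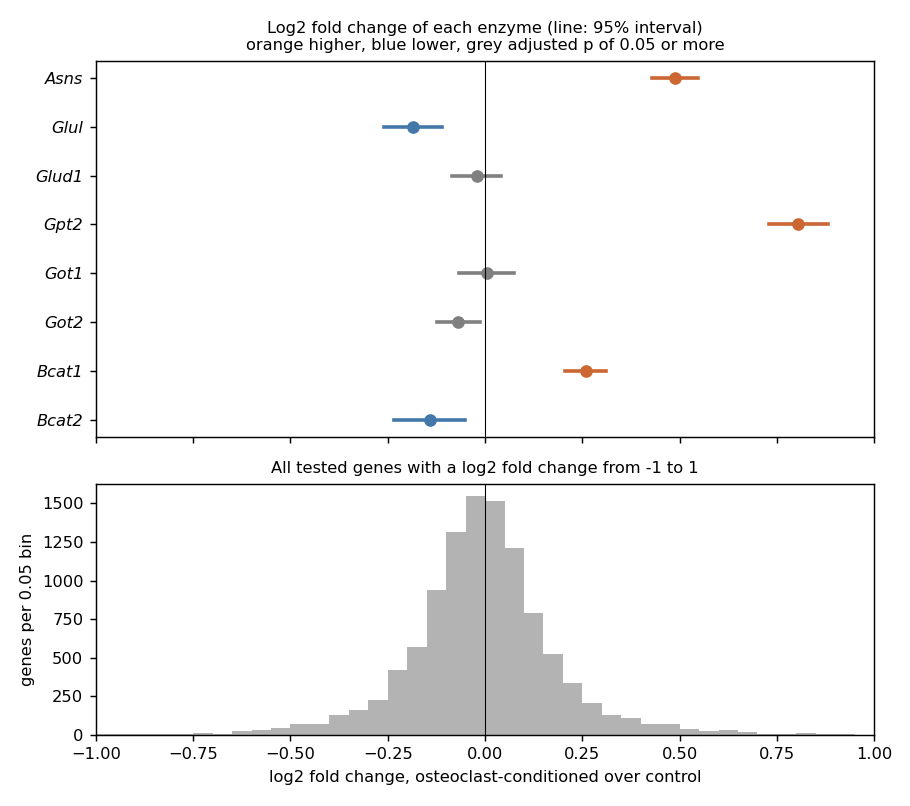
Log2 fold change of each enzyme in osteoclast-conditioned over control medium (upper panel; points are estimates and lines 95% intervals) above the distribution of log2 fold changes of all tested genes between -1 and 1 (lower panel; y axis, genes per bin of 0.05). Gpt2 at 0.81 and Asns at 0.49 lie in the right tail of the distribution, Bcat1 at 0.26 lies nearer its body, and the falls of Glul (-0.19) and Bcat2 (-0.14) lie within its left shoulder.

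Levels were compared between genes as normalised CPM per kilobase of merged exon. In control medium the order was Got2 (75.9 ± 1.05), Glud1 (58.1 ± 2.50), Asns (47.4 ± 1.02), Got1 (39.2 ± 1.65), Bcat1 (25.9 ± 0.351), Glul (24.5 ± 0.844), Gpt2 (12.7 ± 0.739) and Bcat2 (12.3 ± 0.400). Neighbours in this order did not overlap across cultures except Bcat1 with Glul and Gpt2 with Bcat2. In osteoclast-conditioned medium Asns (66.4 ± 0.937) stood above Glud1 (57.3 ± 1.62) and next to Got2 (72.3 ± 2.10). Gpt2 (22.2 ± 0.591) drew level with Glul (21.5 ± 0.448), and theirs was the one pair of neighbours whose cultures overlapped. Exon length counts the exons of all annotated isoforms (9322 bases for Bcat1), so a gene with exons that these cells do not use reads low on this scale.

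**Figure D3:**
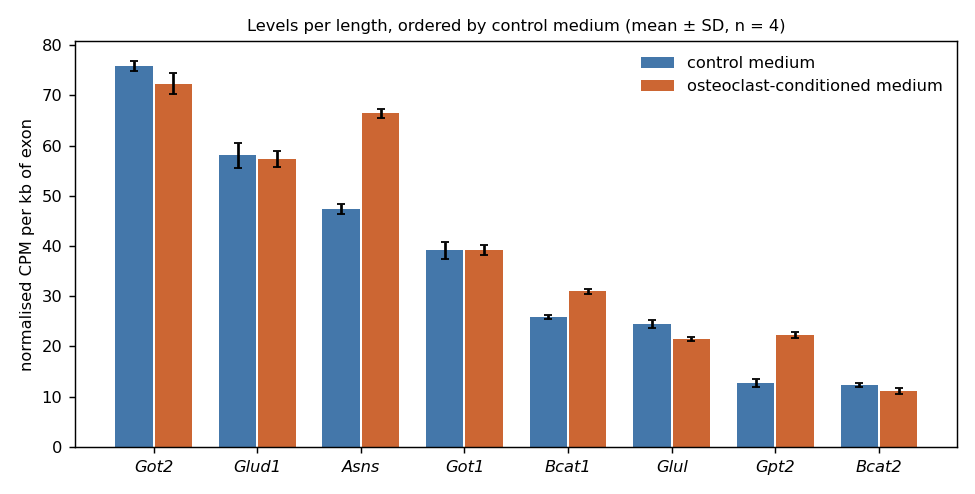
Mean level of each enzyme mRNA in normalised CPM per kilobase of exon (y axis from 0) in control (blue) and osteoclast-conditioned medium (orange), with SD over 4 cultures, ordered by the level in control medium. Asns rises from 47.4 to 66.4 and passes Glud1, and Gpt2 rises from 12.7 to 22.2 and reaches the level of Glul.

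Ratios of 2 enzymes within the same culture do not depend on the scaling of libraries, and 4 of them were tested by two-sided exact permutation over the cultures, with Benjamini-Hochberg adjustment over the 4. The log2 ratio of Bcat1 to Bcat2 counts was 2.33, 2.30, 2.33 and 2.38 in control replicates 1 to 4 and 2.81, 2.77, 2.74 and 2.62 in osteoclast-conditioned replicates 1 to 4. All osteoclast-conditioned values were above all control values. The cytosolic enzyme thus gained on the mitochondrial one by 0.40 on the log2 scale, or 1.32-fold (exact p = 0.0286, the smallest that 4 against 4 cultures allow; adjusted p = 0.0381). Per length, Bcat1 made up 67.9% ± 0.472 of the mRNA of the pair in control cultures and 73.6% ± 1.08 in conditioned ones.

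The ratio of Asns to Glul showed the widest shift. On the log2 scale it was 0.63, 0.60, 0.75 and 0.71 in control replicates 1 to 4 and 1.32, 1.36, 1.36 and 1.34 in osteoclast-conditioned replicates 1 to 4. The osteoclast-conditioned cultures agreed closely with each other and lay far from the control cultures. The difference was 0.67, or 1.59-fold (exact p = 0.0286, adjusted p = 0.0381). In every osteoclast-conditioned culture Asns was above and Glul below its control range. The separation of this ratio and its exact p were therefore fixed by those values and add no support to them. The ratio of Glul to Glud1 fell by 0.16 on the log2 scale, from -1.59 ± 0.03 to -1.75 ± 0.03, with no overlap and the same exact and adjusted p.

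For Got1 to Got2 the log2 ratio was -1.84, -1.87, -1.88 and -1.94 in control replicates 1 to 4 and -1.86, -1.80, -1.75 and -1.82 in osteoclast-conditioned replicates 1 to 4. The groups overlapped through osteoclast-conditioned replicate 1 and control replicate 1. The difference of 0.07 did not pass the threshold (exact p = 0.0571, adjusted p = 0.0571), and Got1 made up 34.0% ± 0.651 and 35.2% ± 0.746 of the pair per length in the respective media.

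**Figure D4:**
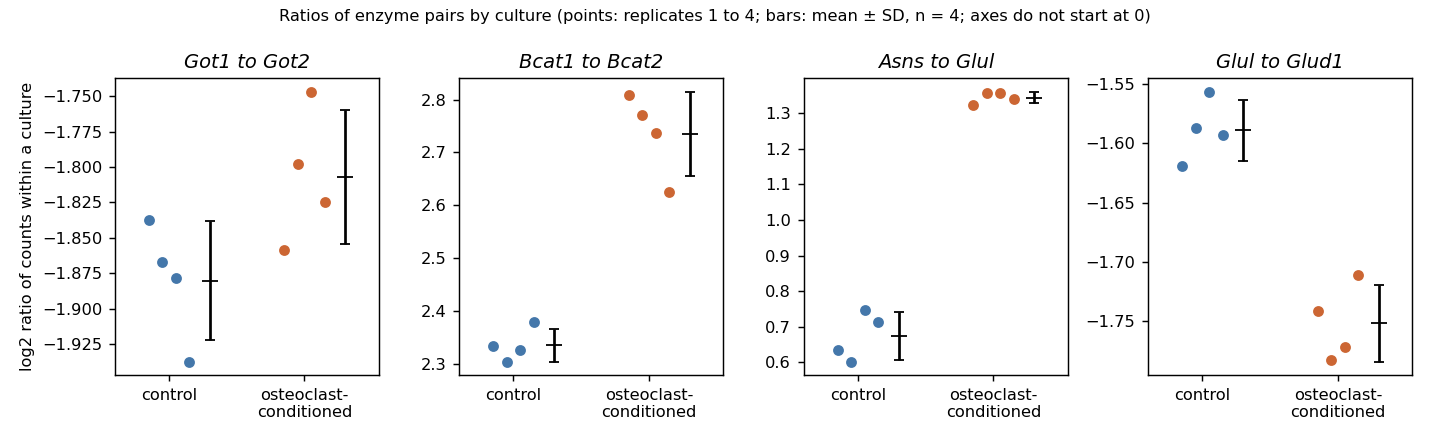
Log2 ratio of the counts of 2 enzymes within each culture (y axes differ and do not start at 0), with points for replicates 1 to 4 of control (blue) and osteoclast-conditioned medium (orange) and bars for the mean ± SD. Bcat1 to Bcat2 and Asns to Glul are higher in every osteoclast-conditioned culture, Glul to Glud1 is lower in every one, and the groups overlap for Got1 to Got2.

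Across the 8 cultures the genes whose log2 CPM followed Asns most closely were Vldlr (Pearson r = 0.998), Sars (0.998), Fam129a (0.997), Dock2 (0.997) and Npc2 (0.997). These genes were picked as the highest of all 10729 correlations over the same cultures, which fall into the 2 media, so their difference between media was fixed by the choice and is given without a test. Vldlr had 15.4 ± 0.422 normalised CPM in control and 29.7 ± 1.27 in conditioned cultures, and Sars, the cytosolic seryl-tRNA synthetase, had 236 ± 3.12 and 303 ± 4.00. Among the other 7 enzymes r with Asns was 0.983 for Gpt2, 0.980 for Bcat1, 0.021 for Got1, -0.233 for Glud1, -0.764 for Got2, -0.842 for Bcat2 and -0.930 for Glul. With the media means removed, r with Asns ran from -0.65 for Bcat2 to 0.099 for Got2 over these 7 enzymes, with -0.17 for Gpt2 and -0.43 for Bcat1. It ran from 0.68 for Fam129a to 0.93 for Npc2 over the 5 nearest genes, which were chosen on the same cultures, so the values of the 2 sets cannot be compared.

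The neighbouring enzymes of the same pathways were read from 5 lists with 62 genes, of which 49 were tested. The edgeR test called 15 of them, 6 higher and 9 lower, or 30.6%, close to the 30.5% of all tested genes. The list of glutamine and asparagine hydrolysis had 0 of 5 tested genes called by edgeR, by DESeq2 or by limma-voom. Of these 5, 1 had an unadjusted edgeR p under 0.05. Gls2, a glutaminase, had 1.65 ± 0.312 normalised CPM in control and 2.04 ± 0.413 in conditioned cultures (log2 fold change 0.32, SE 0.20, edgeR adjusted p = 0.226).

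Of the glutamine amidotransferases, which use the amide nitrogen of glutamine as Asns does, 1 of 8 tested genes rose and 2 fell. The called share was 37.5%, against 30.5% of all tested genes. Nadsyn1, which makes NAD, fell by 0.32 on the log2 scale (SE 0.09) and Ppat, the entry enzyme of purine synthesis, fell by 0.11 (SE 0.03). Cad, which starts pyrimidine synthesis, rose by 0.10 (SE 0.03), with edgeR adjusted p of 0.00890, 0.00146 and 0.00499 in that order. The median of the list was -0.03.

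Among the other transaminases 5 of 13 genes were tested, of which 1 rose and 2 fell (60% called, against 30.5% of all tested genes). On the log2 scale Kyat3, a kynurenine aminotransferase, fell by 0.23 (SE 0.06, edgeR adjusted p = 0.00326) and Phykpl, a phosphohydroxylysine lyase of the aminotransferase family, fell by 0.21 (SE 0.05, edgeR adjusted p = 0.000744). Psat1, the transaminase of serine synthesis, went from 317 ± 14.9 to 335 ± 8.99 normalised CPM, or by 0.08 on the log2 scale (SE 0.03, edgeR adjusted p = 0.0482) with overlapping groups. Oat, ornithine aminotransferase, had 0 counts in every culture. Its whole span lies inside that of Fgfr2 (42.9 ± 3.15 normalised CPM in control medium), as does that of Acadsb, another listed gene with 0 counts, named after its value was seen. Whether these zeros reflect expression was not tested.

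Downstream of Bcat1 and Bcat2, the keto acids of leucine, isoleucine and valine are broken down in mitochondria. Of 22 tested genes of this route 3 rose, 1 fell and 18 did not pass the test, and the median log2 fold change was 0.02. The called share was 18.2%, under the 30.5% of all tested genes. Bckdha, a catalytic subunit of the branched-chain keto acid dehydrogenase, went from 20.7 ± 1.72 to 24.7 ± 1.36 normalised CPM (log2 fold change 0.25, SE 0.06, edgeR adjusted p = 0.00291). Bckdk, the kinase that switches that complex off, went from 60.3 ± 1.06 to 52.1 ± 1.101 (-0.21, SE 0.04, edgeR adjusted p = 8.89e-05). Ivd, the next dehydrogenase in leucine breakdown, rose by 0.22 (SE 0.05). The third rise was that of Dld (0.10, SE 0.03), the shared lipoamide dehydrogenase subunit, which was named after its value was seen.

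The list of the malate-aspartate shuttle and of alpha-ketoglutarate holds the partners of Got1 and Got2. In it 1 of 9 tested genes rose and 4 fell, and the median log2 fold change was -0.09. The called share was 55.6%, against 30.5% of all tested genes (15.7% higher and 14.8% lower). Mdh1, the cytosolic malate dehydrogenase that works with Got1 in the shuttle, went from 151 ± 7.36 to 130 ± 5.58 normalised CPM (log2 fold change -0.21, SE 0.04, edgeR adjusted p = 3.58e-05). Idh1, the cytosolic isocitrate dehydrogenase, had the largest fall (-0.35, SE 0.06, edgeR adjusted p = 3.41e-05). Ogdh and Idh2, named after their values were seen, had log2 fold changes of -0.09 each. The rise was that of Aldh18a1, which turns glutamate toward proline, from 368 ± 7.93 to 456 ± 10.3 normalised CPM (0.31, SE 0.03, edgeR adjusted p = 2.06e-10).

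**Figure D5:**
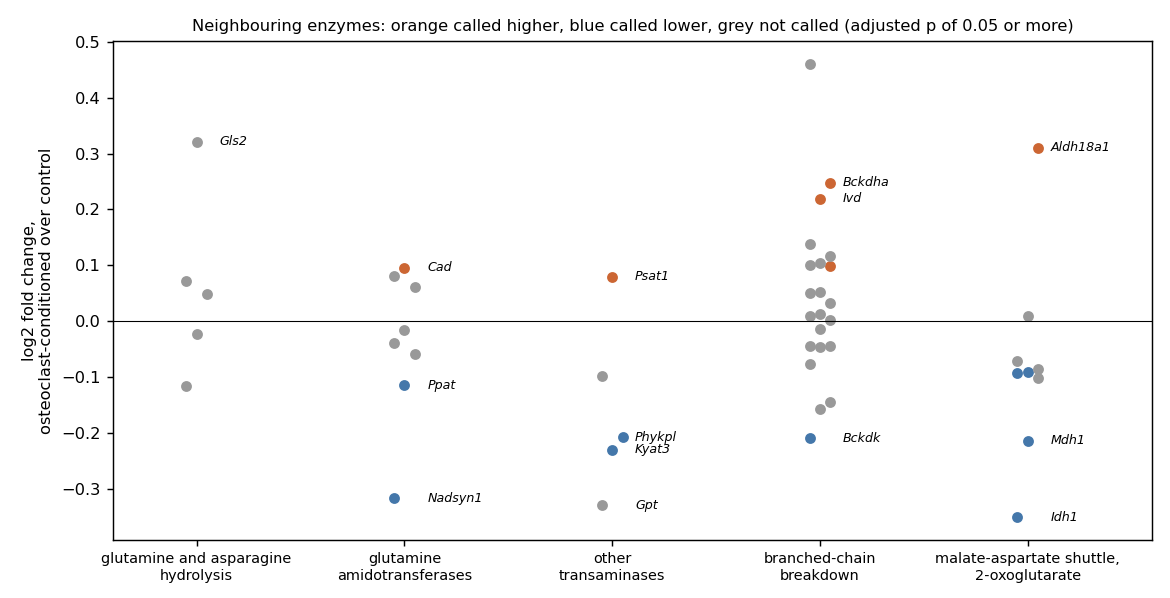
Log2 fold change in osteoclast-conditioned over control medium (y axis) of the 49 tested genes in 5 lists of neighbouring enzymes (x axis), orange where called higher, blue where called lower and grey where the adjusted p was 0.05 or more; labelled genes are among those chosen by the naming rule. Called genes point in both directions in every list that has any, and among called genes Aldh18a1 at 0.31 and Idh1 at -0.35 lie at the ends.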

How the data were processed

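Counts of 8 cultures (4 per medium) were deposited by the authors as whole-number counts for each Ensembl gene, not normalised. STAR 2.7.5a, featureCounts 2.0.1 and the build mm10 are named in the submitters' processing notes. Annotation, strand and handling of molecular barcodes and multimapping reads are not given in the sources used here. Columns were matched by the sample number in their header. GENCODE M21 (GRCm38) matched 21817 of 21859 IDs; promoters came from RefSeq.

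Genes passing filterByExpr (10729) were scaled by TMM and tested with edgeR 4.0.16 in R 4.3.3 (glmQLFit robust, glmQLFTest, medium as the term), with Benjamini-Hochberg adjustment over all of them and a threshold of 0.05. The fit was tested on simulated data. It called 34% of 1.1-fold, 69.4% of 1.2-fold, 92% of 1.5-fold and 96% of 2-fold changes with the right sign. Small changes can therefore be missed. SE is the absolute log2 fold change over the square root of F. Log2 CPM used a prior count of 2, and log2 ratios 0.5 added to counts (scipy 1.17.1). Transcript stretches of 75 bases were compared with all other GENCODE transcripts.

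The 8 members, the lists and the tests were chosen with earlier results of these data known. Named were the 8 members, Gls2, Psat1, Oat and Gpt, up to 3 called genes per list with the largest absolute change, and the 5 genes nearest to Asns by correlation; some items are not reported here. Alternatives were 3 other scalings, 2 other filters, DESeq2 1.42.0, limma-voom (limma 3.58.1), the replicate block, thinning to 15391754 counts, a test against 1.2-fold, other pseudocounts and leaving out each culture.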

Additional observations from a re-analysis of the deposited data

Results flagged for a closer look

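For the 8 enzymes, the 4 ratios and the tested neighbouring genes named in the text (27 results in 54 groups of 4 cultures), the highest or lowest culture was compared with the other 3 of its medium. In 2 groups the gap to the nearest culture took up more of the range than Dixon's 95% critical value for 4 samples allows, where chance gives about 2.7. Bckdha was highest in osteoclast-conditioned replicate 4, at 26.7 normalised CPM against 23.8 to 24.2 in the other 3 cultures (ratio 0.870). Aldh18a1 was lowest in control replicate 3, at 356 normalised CPM against 371 to 373 (ratio 0.878). None of the 8 enzymes and none of the 4 ratios met the criterion in either medium.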

How the results depend on the processing

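The calls of Asns and Gpt2 held under all 10 alternative settings and in all 8 fits that each left out 1 culture, with log2 fold changes from 0.47 to 0.50 and from 0.77 to 0.83. Those of Glul, Bcat1 and Bcat2 were lost against a change of 1.2-fold (-0.19, 0.26 and -0.14), where 2 of the 8 enzymes, 0 of the neighbouring genes (2 at an unadjusted p under 0.05) and 227 genes in all were called; the stricter null is the cause. Otherwise 5 or 6 of the 8 enzymes were called. Got2 passed the threshold with total counts only (-0.090), upper-quartile scaling (-0.078) and the replicate block (-0.069, adjusted p = 0.0390). Got1 turned sign with total counts only (-0.018) and upper-quartile scaling (-0.0052), which shift all genes alike. Total counts only moved the median log2 fold change of all genes by -0.021, about as far as Got1, and made 40.7% of calls higher, against 51.6% with TMM. With the replicate block 3446 genes were called, but deviations of same-numbered cultures correlated by over 0.1 in 1 of 4 pairs, and 3 of 8 cultures correlated best with their own number. Paired by number, the ratios of Bcat1 to Bcat2 (0.40), Asns to Glul (0.67) and Glul to Glud1 (-0.16) could not pass, since 4 pairs allow no exact p under 0.125. Leaving out 1 culture allows none under 0.0571 and gave 0.37 to 0.44, 0.65 to 0.69 and -0.18 to -0.15. In such fits the fold changes ran from -0.17 to -0.12 for Bcat2, -0.086 to -0.055 for Got2, -0.045 to 0.0015 for Glud1 and -0.020 to 0.026 for Got1. Among these fits, the calls of Bcat2 and Got2 changed only without osteoclast-conditioned replicate 1. The number of called genes ran from 2635 to 3578 in them. At 722 to 1073 counts per culture Bcat2 was the least deeply counted of the 8 enzymes.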
